A study of Mus musculus with 8 samples.

Results

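Immediate early genes are transcribed within minutes of a growth factor, stress or injury signal, without new protein synthesis. The best known of them encode the subunits of the transcription factor AP-1 (the Fos and Jun families). The 10 genes described here lie outside AP-1: Egr1, Myc, Klf6, Ier2, Ier5, Ier3, Phlda1, Dusp1, Zfp36 and Btg2. They were taken by name from the 27110 genes of the deposited table, and all 10 were among the 16420 genes with enough reads to test. Whole-liver total RNA was sequenced at week 7 from mice labelled NT, 4 libraries per genotype. The LKO libraries (replicates 3, 4, 12 and 13, all female) carry a deletion of Pkd1l1 restricted to the liver, and the Fl/Fl libraries (replicates 5, 7 and 9 female, 10 male) are the controls. Not given in the sources used here are the Cre driver, the strain and whether the controls carry Cre. The labels name hepatocytes and cholangiocytes as the cell types.

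Serum response factor with its ternary complex partners, and CREB, sit preformed on many immediate early promoters and are switched on by MAP kinase and calcium or cyclic AMP signals. The products then act in layers. Egr1, Myc and Klf6 are transcription factors that carry the signal to later genes, while Dusp1, Zfp36 and Btg2 are brakes that dephosphorylate MAP kinases, speed the decay of short-lived mRNAs and restrain proliferation. In liver the class is known for its response to partial hepatectomy, feeding, stress and the handling of tissue, and its mRNAs turn over fast.

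Libraries held 71491723 to 76622375 counted reads. Pkd1l1 itself had 0 to 2 reads in each library, so its RNA could not check the genotype labels. Hepatocyte markers summed to 133259 to 137374 CPM (read counts scaled to library size by TMM, a normalisation between libraries) in female Fl/Fl, 88608 in the male library and 126136 to 143983 CPM in LKO. Of the 10 cholangiocyte markers, 9 could be tested and none was at 0. Their sum was 66.9 to 80.6 CPM in female Fl/Fl, 57.5 in the male library and 55.6 to 66.5 in LKO. In bulk tissue, fewer cells of a type and less RNA per cell cannot be told apart.

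The immediate early genes outside AP-1 were mostly at lower levels in LKO than in female Fl/Fl livers, but 1 of the 10 passed the test. Phlda1 fell 4.04-fold, while Egr1, Myc and Ier2 had lower values in every LKO library than in every female Fl/Fl library without passing. Each fold change is given as the log2 ratio of LKO to female Fl/Fl with a standard error, from edgeR's quasi-likelihood test over all 8 libraries with a term for sex, and adjusted p-values are Benjamini-Hochberg over the 16420 genes with a threshold of 0.05. With that rule 1 of 10 members was lower and 0 were higher, where 0.396% of all genes were called lower and 1.02% higher. The members' log2 fold change was negative in 8 of 10, with a median of -1.02, against 50.5% of all genes and a median of -0.0032. At an unadjusted p under 0.05, 6 of 10 members were lower and 0 higher, and 6.86% of all genes were lower. In 4 of 10 members (Egr1, Ier2, Myc and Phlda1) the LKO values lay wholly below the female Fl/Fl values, as they did in 6.22% of all genes. Phlda1 was the 1 member whose LKO values lay below all 4 Fl/Fl values, the male included, as in 2.11% of all genes. DESeq2, run on the same counts, called 5 members lower (Egr1, Ier2, Myc, Phlda1 and Zfp36) and 0 higher. It also called more of all genes, 1.63% lower and 2.97% higher. The edgeR count of lower members was 0 without a sex term, a fit that called 0 genes lower and 1 higher of 16420. With a clock term the count was also 0, where 0.499% of all genes were called lower and 1.33% higher. It was 0 too in 5 of the 8 fits that leave out a library (Fl/Fl 5, Fl/Fl 7, LKO 4, LKO 12 or LKO 13). In those 5 fits 0.0119% to 0.179% of all genes were called lower. Without Fl/Fl 9 the count was 4, where 1.5% of all genes were called lower and 2.84% higher.

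**Figure D1:**
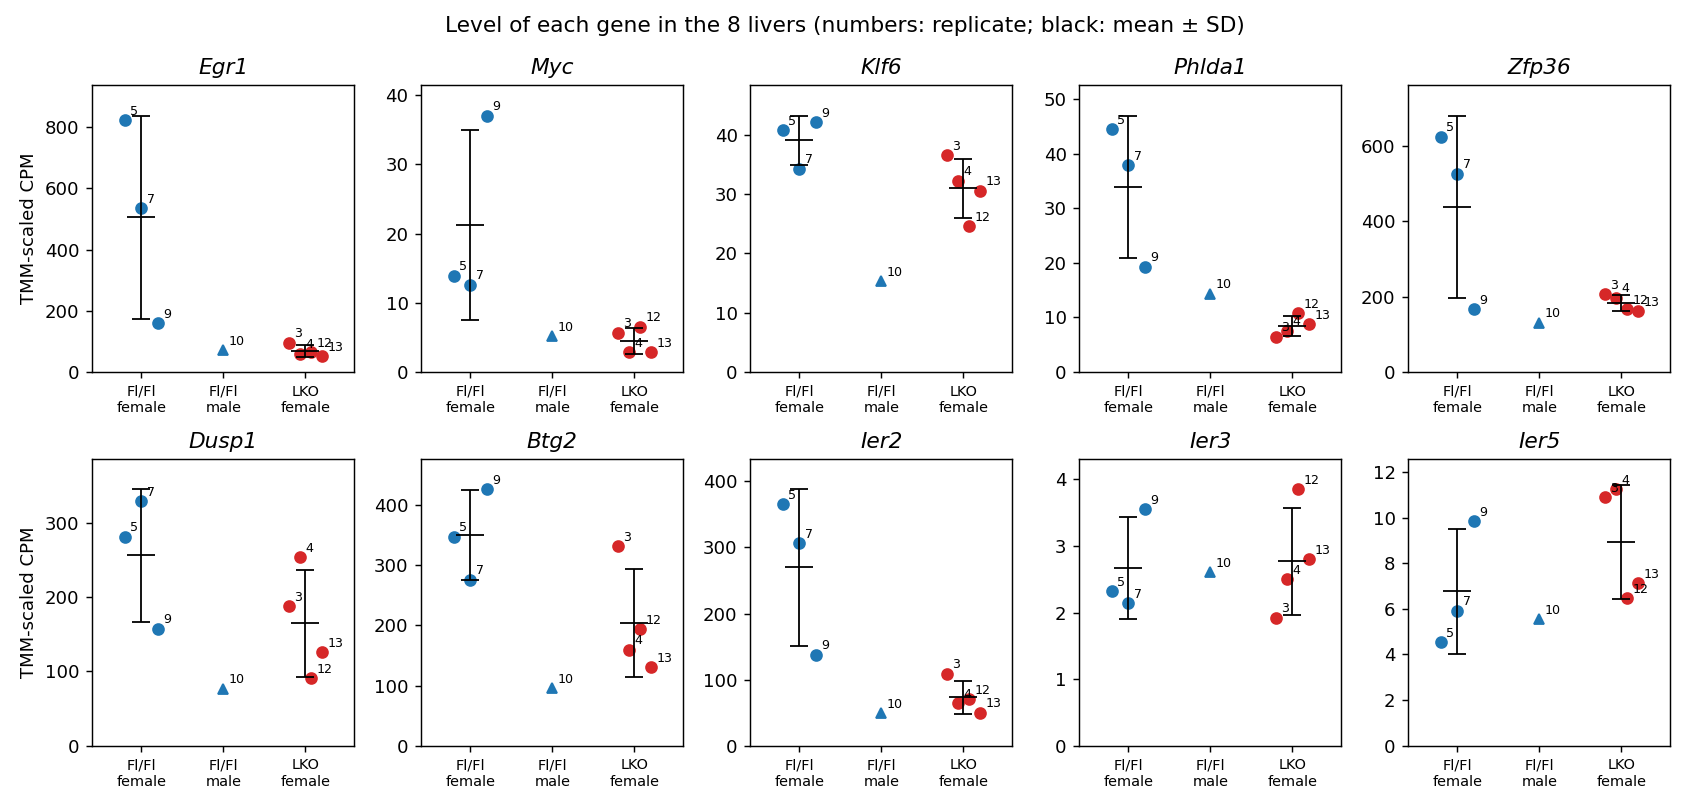
Level of each of the 10 genes in each of the 8 livers, in TMM-scaled CPM on a linear axis from 0; points are single libraries numbered by replicate, and black lines are mean ± SD of the female Fl/Fl and LKO libraries. Egr1, Ier2, Myc and Phlda1 are lower in all 4 LKO libraries than in the 3 female Fl/Fl libraries, and the male Fl/Fl 10 lies apart from the female controls and nearer to LKO in 8 of the 10 panels.

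Read per gene length as deposited FPKM (fragments scaled to gene length and library size), the members formed an abundant and a scarce set in female Fl/Fl livers. Ier2 had the highest mean level at 184 ± 80.0 FPKM (SD, n = 3), followed by Btg2 at 133 ± 29.0, Zfp36 at 131 ± 71.9, Egr1 at 117 ± 76.7 and Dusp1 at 98.4 ± 33.8. These 5 did not differ from their neighbours beyond their spread. Phlda1 came next at 15.96 ± 6.11 FPKM, then Klf6 at 9.23 ± 1.02, Myc at 8.11 ± 5.30, Ier3 at 2.46 ± 0.72 and Ier5 at 2.15 ± 0.88. The lowest level of the abundant set in a female Fl/Fl library, 37.1 FPKM of Egr1 in Fl/Fl 9, was above the highest of the scarce set, 20.9 FPKM of Phlda1 in Fl/Fl 5. In LKO livers the order of mean levels was Btg2 (77.1 ± 33.8 FPKM, n = 4), Dusp1 (63.3 ± 27.6), Zfp36 (54.7 ± 6.75), Ier2 (50.02 ± 17.2) and Egr1 (15.7 ± 4.47), and then Klf6 (7.31 ± 1.19), Phlda1 (3.95 ± 0.84), Ier5 (2.83 ± 0.79), Ier3 (2.54 ± 0.73) and Myc (1.72 ± 0.73). By mean level, Ier2 thus stood first in the female controls and behind Btg2, Dusp1 and Zfp36 in LKO, and Myc stood last in LKO. Single libraries differed from this order. In Fl/Fl 9 Btg2 (162 FPKM) was above Ier2 (94.5 FPKM). In the male Fl/Fl 10 Zfp36 (39.3 FPKM) and Btg2 (36.2 FPKM) were above Ier2 (33.9 FPKM). The LKO spreads of Ier2 and Zfp36 overlapped, as did those of Myc and Ier3.

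Among the transcription factors, Egr1 and Myc had large fold changes with a wide spread, and Klf6 a small one. Egr1, a zinc finger factor that binds GC-rich promoters (ENSMUSG00000038418, chromosome 18, 34859823 to 34864984, plus strand, mm10), had 822, 534 and 159 CPM in Fl/Fl 5, 7 and 9, and 70.9 CPM in the male Fl/Fl 10. Its level in LKO 3, 4, 12 and 13 was 95.9, 59.2, 63.9 and 52.6 CPM. The controls themselves spanned a 5.16-fold range in females, with Fl/Fl 5 and 7 high and Fl/Fl 9 nearer to LKO, while the LKO libraries spanned 1.82-fold and the male library lay inside their range. The log2 fold change of Egr1 was -2.90 ± 0.57, the seventh most negative of all genes tested, and its adjusted p was 0.0945 (edgeR), with 4.88e-06 to 0.544 over the 19 alternatives. Myc, a basic helix-loop-helix factor that drives ribosome production and cell growth (ENSMUSG00000022346, chromosome 15, 61985391 to 61990374, plus strand), had 13.9, 12.6 and 37.0 CPM in Fl/Fl 5, 7 and 9, 5.16 CPM in Fl/Fl 10, and 5.70, 2.85, 6.56 and 2.88 CPM in LKO 3, 4, 12 and 13. Its highest library was Fl/Fl 9, the control in which Egr1 was lowest among females, and the male library overlapped LKO. The log2 fold change of Myc was -2.23 ± 0.52 (edgeR adjusted p = 0.113; 0.00290 to 0.558 over the alternatives). Klf6, a Krüppel-like factor studied in liver injury (ENSMUSG00000000078, chromosome 13, 5861482 to 5870394, plus strand), had 40.7, 34.3 and 42.0 CPM in Fl/Fl 5, 7 and 9, 15.3 CPM in Fl/Fl 10, and 36.5, 32.2, 24.5 and 30.5 CPM in LKO. The groups overlapped, and the log2 fold change was -0.34 ± 0.13 (edgeR adjusted p = 0.242).

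Of the Ier genes, named for their immediate early response, Ier2 and Ier5 are related proteins and Ier3 is not, and their values differed in sign. Ier2, a nuclear protein linked to transcription and cell motility (ENSMUSG00000053560, chromosome 8, 84661331 to 84662852, minus strand), had 365, 306 and 138 CPM in Fl/Fl 5, 7 and 9, 49.5 CPM in Fl/Fl 10, and 109, 64.8, 70.3 and 49.8 CPM in LKO 3, 4, 12 and 13. The order of its controls was near that of Egr1, with Fl/Fl 5 and 7 high, Fl/Fl 9 lower and the male library at the bottom. Its log2 fold change was -1.88 ± 0.40 (edgeR adjusted p = 0.0999; 0.000685 to 0.621 over the alternatives). Ier5, which binds the phosphatase PP2A and acts on the heat shock factor Hsf1 (ENSMUSG00000056708, chromosome 1, 155096361 to 155099636, minus strand), had 4.54, 5.92 and 9.84 CPM in Fl/Fl 5, 7 and 9, 5.53 CPM in Fl/Fl 10, and 10.9, 11.2, 6.47 and 7.11 CPM in LKO. Its lowest libraries were Fl/Fl 5 and 10, and Fl/Fl 9 was inside the LKO range. Ier3, a short-lived regulator of cell survival and NF-kB signalling (ENSMUSG00000003541, chromosome 17, 35821684 to 35822923, plus strand), had 2.32, 2.14 and 3.55 CPM in Fl/Fl 5, 7 and 9, 2.61 CPM in Fl/Fl 10, and 1.92, 2.50, 3.85 and 2.80 CPM in LKO. Groups overlapped for both genes, with log2 fold changes of 0.40 ± 0.30 for Ier5 (edgeR adjusted p = 0.569) and 0.05 ± 0.26 for Ier3 (0.950). These were the 2 members with a positive value.

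Phlda1 was the member that passed the test. It encodes a small protein with a pleckstrin homology-like domain that growth factor signalling induces and that has been tied to cell death and to restraint of receptor tyrosine kinase signalling (ENSMUSG00000020205, chromosome 10, 111506286 to 111508645, plus strand). Its level was 44.5, 37.9 and 19.3 CPM in Fl/Fl 5, 7 and 9, then 14.4 CPM in Fl/Fl 10, and 6.49, 7.58, 10.7 and 8.80 CPM in LKO 3, 4, 12 and 13. Every LKO library was below every control, and among the controls Fl/Fl 9 and 10 were nearest to LKO. Mean levels were 33.9 ± 13.1 CPM (SD, n = 3) and 8.40 ± 1.82 CPM (n = 4), and the log2 fold change was -2.01 ± 0.30 (edgeR adjusted p = 0.0328). Its fold change was negative in all 19 alternatives, from -2.30 to -1.21, and the call held in 9 of them (2 of which, the females alone and without Fl/Fl 10, are the same fit), with adjusted p-values from 1.0015e-12 to 0.393. Leaving out 1 library at a time ended the call in 6 of 8 cases: the adjusted p was 0.0998 without Fl/Fl 5, 0.0995 without Fl/Fl 7, 0.0705 without LKO 3, 0.126 without LKO 4, 0.0509 without LKO 12 and 0.0834 without LKO 13. It was also lost without a term for sex, where the adjusted p was 0.393 and the log2 fold change -1.79. That fit called 0 genes lower and 1 higher of 16420.

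**Figure D2:**
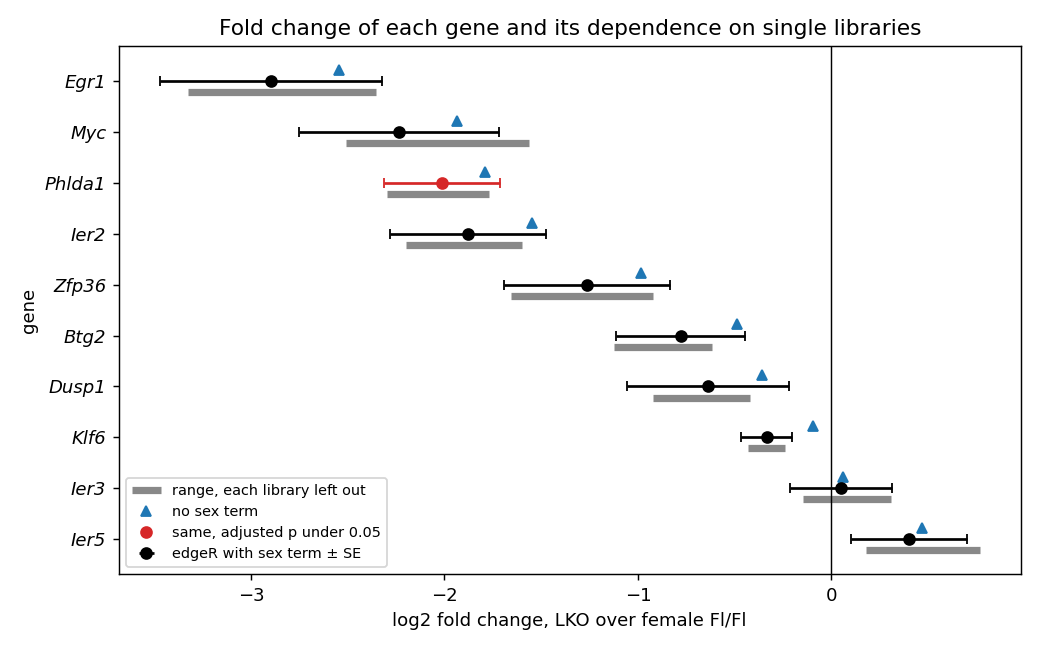
Log2 fold change of LKO over female Fl/Fl for each of the 10 genes (points, with standard error; red where the adjusted p is under 0.05), its range when each library is left out in turn (grey bars) and its value without a sex term (triangles). Phlda1 at -2.01 ± 0.30 is the member past the threshold; Egr1 and Myc lie at -2.90 and -2.23 with wider errors, and Ier3 and Ier5 lie near or above 0.

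The 3 feedback genes had overlapping groups, and none passed the main test. Zfp36, or tristetraprolin, binds AU-rich stretches of mRNA and recruits the deadenylase that shortens their tails (ENSMUSG00000044786, chromosome 7, 28376784 to 28380253, minus strand). It had 624, 527 and 166 CPM in Fl/Fl 5, 7 and 9, 131 CPM in Fl/Fl 10, and 207, 197, 166 and 162 CPM in LKO 3, 4, 12 and 13. Fl/Fl 5 and 7 stood above all other libraries, and Fl/Fl 9 was within the LKO range, so that the log2 fold change was -1.26 ± 0.43 (edgeR adjusted p = 0.236; 0.000193 to 0.825 over the alternatives). The log2 fold change of Zfp36 was -1.66 without Fl/Fl 9, where it passed (0.000193). It was 0.13 without Fl/Fl 5 and 7, where the sex term leaves Fl/Fl 9 as the only female control. Dusp1, the phosphatase that inactivates p38, JNK and ERK kinases (ENSMUSG00000024190, chromosome 17, 26505590 to 26508519, minus strand), had 281, 329 and 157 CPM in Fl/Fl 5, 7 and 9, 76.8 CPM in Fl/Fl 10, and 188, 253, 90.6 and 126 CPM in LKO. Within each genotype its higher female libraries were Fl/Fl 5 and 7 and LKO 3 and 4, and its log2 fold change was -0.64 ± 0.42 (edgeR adjusted p = 0.524). Btg2, an antiproliferative protein that binds the CCR4-NOT deadenylase (ENSMUSG00000020423, chromosome 1, 134075170 to 134079120, minus strand), had 347, 276 and 426 CPM in Fl/Fl 5, 7 and 9, 95.3 CPM in Fl/Fl 10, and 332, 160, 193 and 130 CPM in LKO 3, 4, 12 and 13. Here LKO 3 stood with the controls, and the log2 fold change was -0.78 ± 0.34 (edgeR adjusted p = 0.321). Without LKO 3 the log2 fold change of Btg2 was -1.12 with an adjusted p of 0.0341, where the alternatives spanned 0.0341 to 0.836. An antisense gene, Gm44710, overlaps Zfp36 but had 4 to 21 reads per library against at least 9168 of Zfp36.

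Promoter sequences of 6 members (Btg2, Dusp1, Ier3, Ier5, Klf6 and Zfp36) were in the RefSeq table (GRCm38.p6), and Egr1, Ier2, Myc and Phlda1 were not among its entries. The 4 printed here are those of the 3 feedback genes, none of which passed the main test, and of Ier3. The feedback genes carry matches to immediate early motifs, and Ier3, like Ier5, carries none of the motifs searched. A link between motifs and fold changes was not tested. Each stretch is given 5′ to 3′ on the gene's own strand, and capitals mark motif matches. Those of Btg2, Dusp1 and Ier3 are without annotated exon bases. The Zfp36 stretch is 30 bases around a motif match and was not filtered for exon bases. The Zfp36 stretch is chr7:28379267-28379296 (minus strand, 68 to 39 bases before the RefSeq start). The Btg2 stretch is chr1:134079156-134079405 (minus, 250 to 1). The Dusp1 stretch is chr17:26508520-26508722 (minus, 250 to 48), and the Ier3 stretch is chr17:35821463-35821683 (plus, 250 to 30).
Zfp36: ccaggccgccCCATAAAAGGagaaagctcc
Btg2: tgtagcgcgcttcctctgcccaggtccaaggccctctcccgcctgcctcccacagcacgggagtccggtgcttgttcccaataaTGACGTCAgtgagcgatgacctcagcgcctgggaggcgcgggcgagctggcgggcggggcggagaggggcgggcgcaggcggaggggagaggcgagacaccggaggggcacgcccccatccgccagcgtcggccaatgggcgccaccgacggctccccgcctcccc
Dusp1: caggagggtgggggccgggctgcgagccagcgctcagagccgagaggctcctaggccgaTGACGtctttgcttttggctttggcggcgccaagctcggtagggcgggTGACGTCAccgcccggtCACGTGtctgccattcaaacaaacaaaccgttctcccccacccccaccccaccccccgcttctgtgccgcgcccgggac
Ier3: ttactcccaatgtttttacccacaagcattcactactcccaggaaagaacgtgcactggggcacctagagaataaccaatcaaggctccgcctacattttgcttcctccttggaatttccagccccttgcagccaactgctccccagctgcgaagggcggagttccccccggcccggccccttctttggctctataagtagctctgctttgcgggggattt

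In the 250 bases before the start, a CArG box, the serum response factor site, was matched in Zfp36 alone of the 6 members (58 to 49 bases before the start, capitals above) and in 1.47% of 32851 promoters of the table (1.15% of the 14706 promoters of tested genes). Searches covered both strands, and where 2 shares are given the second is that of tested genes. Zfp36 also held the ETS site CCGGAA (92 to 87 bases before, 12.03% of promoters, 19.9% of tested) and the EGR site GCGGGGGCG (105 to 97 bases before, 2.57%, 4.43%). The full cyclic AMP response element TGACGTCA was matched in Btg2 (166 to 159 bases before) and Dusp1 (143 to 136 bases before) and in 1.55% of all promoters (2.41% of tested). Its core TGACG, which every full element contains, was in the same 2 members and in 17.8% of promoters (24.8%), with a separate copy in Dusp1 191 to 187 bases before the start. The E-box CACGTG, which Myc with Max and the clock factors bind, was in Dusp1 (126 to 121 bases before) and Klf6 (43 to 38 bases before) and in 6.02% of promoters (7.84%). The AP-1 site TGANTCA (6.75% of promoters, 4.90%) and TATAAA (12.4%, 7.21%) were in 0 of the 6. The start that RefSeq gives for Zfp36 lies 1025 bases inside the deposited gene interval. These are matches of letters, and no binding was measured.

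The libraries differed more from each other in these genes than in most. The gene-wise biological coefficient of variation, the spread between libraries of a group beyond counting error, had a median of 33.4% over the members against 17.2% over all genes, and 9 of 10 members were above that all-gene median. Egr1 had 49.2%, Myc 45.5%, Zfp36 38.6%, Dusp1 37.7% and Ier2 36.2%, while Klf6, the steadiest member, had 14.4%. The 10 genes together took 0.256%, 0.210% and 0.119% of all reads in Fl/Fl 5, 7 and 9, 0.0457% in Fl/Fl 10, and 0.0994%, 0.0764%, 0.0636% and 0.0574% in LKO 3, 4, 12 and 13. The male library thus had the lowest share and the 3 female controls the highest shares. Relative to the LKO mean, the members' median level was 1.30, 1.32 and 0.71 higher on the log2 scale in Fl/Fl 5, 7 and 9, and it was -0.49 in the male library. In 8 of 10 members the male library lay closer to the mean of LKO than to that of the female controls, with Ier3 and Ier5 as the exceptions. It was the lowest of all 8 libraries in 5 members. Sex and library cannot be told apart for this sample, since it is the 1 male.

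**Figure D3:**
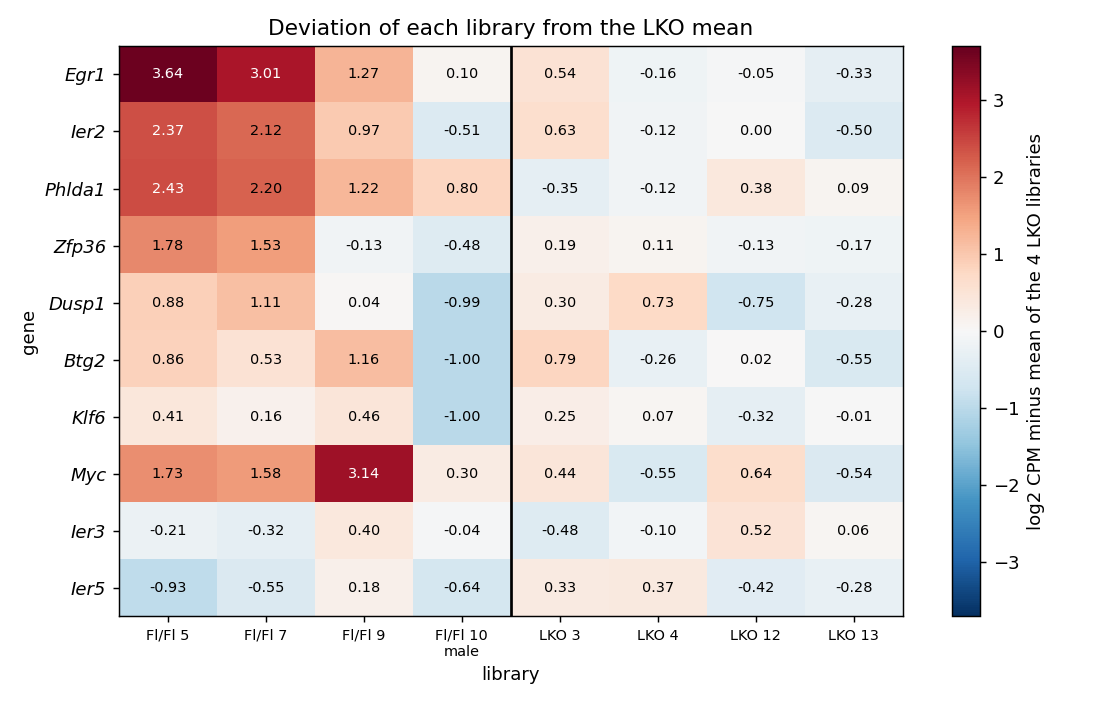
Level of each of the 10 genes in each library as the log2 CPM difference from the mean of the 4 LKO libraries, drawn as a colour grid with the value printed in each cell. Fl/Fl 5 and 7 are high in Egr1 (3.64 and 3.01), Ier2, Phlda1 and Zfp36, Fl/Fl 9 is high in Myc (3.14), and the male Fl/Fl 10 is about 1 lower than the LKO mean in Dusp1, Btg2 and Klf6.

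The libraries also differed in clock genes, which follow the time of day. A clock index was taken as the mean log2 CPM of Dbp, Tef, Nr1d1, Nr1d2, Per3 and Ciart minus that of Arntl, Npas2 and Clock. It was below 0 in Fl/Fl 5 and 7 (-1.36 and -0.97) and LKO 3 and 4 (-1.82 and -0.82), and above 0 in Fl/Fl 9 and 10 (2.12 and 3.12) and LKO 12 and 13 (3.26 and 2.52). Dbp, an output factor of the clock, had 0.606 to 3.5004 CPM in the former 4 libraries and 26.8 to 54.4 CPM in the latter, and the core activator Arntl had 26.6 to 39.7 and 3.98 to 8.52 CPM. Each genotype thus had 2 libraries on each side, but the 3 female controls were split 2 to 1. The labels give no collection time. Sides were drawn after seeing the data, and they are samples grouped by a measured index, not groups of the study.

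The genotype difference was set out on each side as the log2 ratio of mean CPM, LKO 3 and 4 over Fl/Fl 5 and 7 for the low index and LKO 12 and 13 over Fl/Fl 9 for the high index. Egr1 gave -3.13 and -1.45, Ier2 -1.95 and -1.20, Myc -1.63 and -2.97 and Phlda1 -2.55 and -0.98. In these genes every LKO value lay below every female Fl/Fl value. Any split of the females would thus give negative ratios on both sides, and only their sizes could differ. Zfp36 gave -1.51 on the low side and -0.02 on the high side, where LKO 12 and 13 and Fl/Fl 9 all stood between 162 and 166 CPM. Ier5 gave 1.08 and -0.53, with its LKO values above the controls on the low side and below Fl/Fl 9 on the high side. Btg2 gave -0.34 and -1.39, Klf6 -0.13 and -0.61, Dusp1 -0.47 and -0.54 and Ier3 -0.01 and -0.09. With the male Fl/Fl 10 counted beside Fl/Fl 9, the high side gave -0.98 for Egr1, -0.64 for Ier2, -2.16 for Myc, -0.79 for Phlda1, 0.15 for Zfp36, -0.18 for Ier5, -0.69 for Btg2, -0.06 for Klf6, -0.11 for Dusp1 and 0.11 for Ier3, so these ratios depend on which control is used. An interaction term in edgeR over all 8 libraries compared the sides. Its high side has 1 female control, Fl/Fl 9, which is assumed to vary like the other libraries, so the term cannot tell that library from its side. It passed for 3 of 10 members, Zfp36 (high minus low 1.49 ± 0.18, adjusted p = 0.00779), Phlda1 (1.57 ± 0.24, adjusted p = 0.0214) and Ier5 (-1.61 ± 0.27, adjusted p = 0.0380), where 0.378% of all genes passed in either direction. For Egr1 the difference was 1.68 ± 0.51 and did not pass (adjusted p = 0.345). Without a sex term, which lets the male library count as a second control of high index, Zfp36 passed (adjusted p = 0.0454) and Phlda1 (0.0829) and Ier5 (0.418) did not. That fit called 0.0548% of all genes. Without LKO 12 or LKO 13, 0 members passed (Zfp36 adjusted p = 0.0647 and 0.0662), where 0.0537% and 0.0654% of all genes passed. With the index as a term in the fit, the genotype effect of Phlda1 was -2.01 on the log2 scale with an adjusted p of 0.0805, and 0 members passed. That fit called 0.499% of all genes lower and 1.33% higher.

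**Figure D4:**
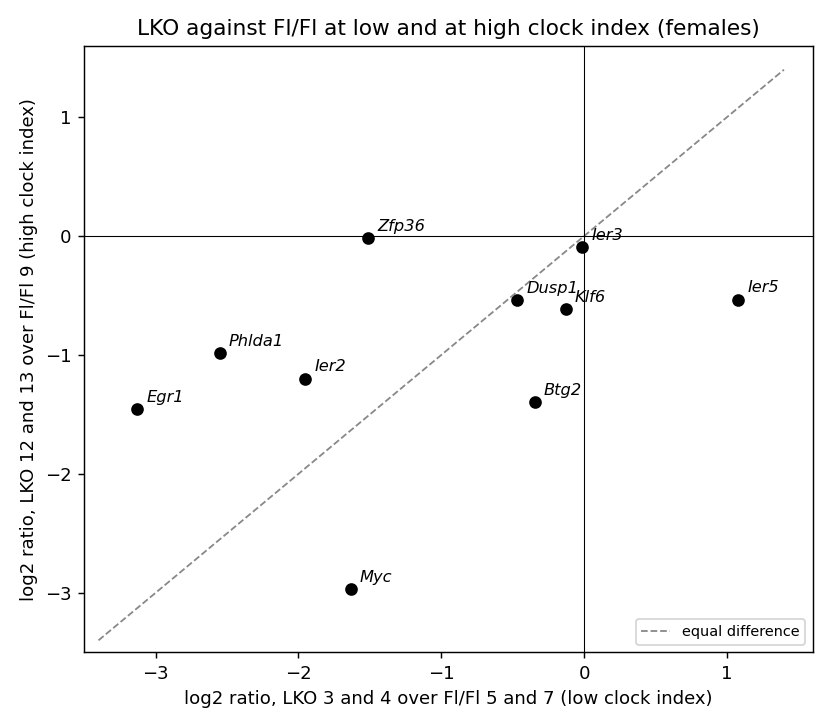
Log2 ratio of LKO to female Fl/Fl for each of the 10 genes, among libraries of low clock index on the horizontal axis (LKO 3 and 4 over Fl/Fl 5 and 7) and of high clock index on the vertical axis (LKO 12 and 13 over Fl/Fl 9); the dashed line marks equal ratios. Zfp36 lies at -1.51 and -0.02, far above the line, and Ier5 at 1.08 and -0.53, far below it.

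Other immediate early genes, the AP-1 genes among them, had 6 of 46 tested genes lower, 0 higher and a median log2 fold change of -0.59, where 0.396% of all genes were called lower and 1.02% higher. DESeq2 called 12 of them lower and 2 higher (Cebpb and Gadd45b), where it called 1.63% of all genes lower and 2.97% higher. Junb fell from 179 ± 19.2 to 48.7 ± 9.66 CPM (edgeR adjusted p = 0.00127). Pim1, a survival kinase, fell from 11.2 ± 2.91 to 4.91 ± 0.39 CPM (0.0157), Hbegf, a ligand of the EGF receptor, from 3.65 ± 0.66 to 1.76 ± 0.16 CPM (0.0315), and Jun from 439 ± 171 to 83.3 ± 24.2 CPM (0.0369). Id2 and Plk2 were also lower. These control means are of the females. The male Fl/Fl 10 had 49.9 CPM of Junb, inside the LKO range (43.0 to 63.2), and 7.67 CPM of Pim1, above it. Its Hbegf (0.513 CPM) and Jun (43.9 CPM) were below every LKO value. The count of lower genes was 1 to 9 when a library was left out, with 1 without Fl/Fl 5, LKO 4 or LKO 13 and 9 without Fl/Fl 9, where 4 were higher. Junb passed in all 8 of these fits, Pim1 in 5 (lost without Fl/Fl 5, LKO 4 or LKO 13), and Jun and Hbegf in 2 (without Fl/Fl 9 or Fl/Fl 10). None of 28 genes of the serum response factor and MAP kinase route passed (edgeR; 4 lower and 4 higher at an unadjusted p under 0.05, 0 by DESeq2; median -0.02). The smallest p there was that of the kinase Map2k2 (log2 0.28 ± 0.08, adjusted p = 0.123). In the edgeR fit without Fl/Fl 9, Mapkapk2 passed as higher, where 2.84% of all genes were called higher.

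The relatives of the members gave few calls in edgeR. Of 13 dual specificity phosphatases, relatives of Dusp1, 2 were higher: Dusp14 (0.897 to 2.29 CPM, edgeR adjusted p = 0.0318) and Dusp16 (60.8 ± 5.74 to 86.5 ± 8.79 CPM, 0.0480). Tob2, an antiproliferative relative of Btg2, rose from 94.0 ± 1.68 to 133 ± 18.0 CPM (0.0483), as 1 of 4 BTG and TOB genes. Klf15, a Krüppel-like factor of fasting metabolism, rose from 210 ± 8.05 to 319 ± 22.002 CPM (0.0161), as 1 of 13 Klf genes. The male Fl/Fl 10 had 325 CPM of Klf15 and 74.3 CPM of Dusp16, both inside the LKO range. Its Tob2 (98.7 CPM) and Dusp14 (1.43 CPM) were below that range. DESeq2 called Klf2 lower and Klf3, Klf13 and Klf15 higher. In edgeR, Klf2 was at log2 -0.78 ± 0.18 (adjusted p = 0.0687) and passed without LKO 3. With 1 library left out in turn, Dusp14 and Klf15 passed in 4 of 8 fits (not without Fl/Fl 5, Fl/Fl 7, LKO 4 or LKO 13), Dusp16 in 2 (without Fl/Fl 9 or LKO 12) and Tob2 in 1 (without Fl/Fl 9). Over all genes, the calls in such fits ranged from 2 lower and 2 higher without Fl/Fl 5 to 251 lower and 476 higher without Fl/Fl 9. Of the 4 Egr and Nab genes 0 passed (1 lower at an unadjusted p under 0.05, and Egr2 lower by DESeq2), with Egr2 at log2 -1.15 ± 0.38 (edgeR adjusted p = 0.181). Ier5l, a relative of Ier2 and Ier5, Ier3ip1, which encodes a partner of Ier3, and Phlda3 did not pass either, with Ier5l at log2 0.48 ± 0.34 (0.541) and Phlda3 at 0.90 ± 0.44 (0.346). None of 13 partners and relatives of Myc passed (1 lower and 2 higher at an unadjusted p under 0.05, 0 by DESeq2), and the smallest p was that of Zbtb17 (log2 0.36 ± 0.12, 0.184). Nor did any of the 18 relatives of Zfp36 and mRNA decay factors (5 lower and 1 higher at an unadjusted p under 0.05, 0 by DESeq2), with Cnot6l at log2 -0.32 ± 0.09 (0.115). In edgeR without Fl/Fl 9, Phlda3 and Zbtb17 passed as higher.

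Genes that the members act on were listed for Zfp36 and Myc. Of 12 tested mRNAs known as targets of Zfp36, 2 were lower and 0 higher, with a median log2 fold change of -1.22: Pim1, given above, and the chemokine Cxcl1, which fell from 7.16 ± 2.77 to 1.503 ± 0.70 CPM (edgeR adjusted p = 0.0322). Some of these mRNAs were scarce, which limits the median. Mean levels in female Fl/Fl and LKO were 1.03 and 0.433 CPM for Ccl2 and 0.823 and 0.477 CPM for Il10. They were 0.400 and 0.0494 CPM for Ptgs2 and 0.297 and 0.0975 CPM for Il6. DESeq2 called 5 of the Zfp36 targets lower (Cxcl1, Cxcl2, Il1b, Nfkbiz and Pim1). Cxcl1 passed in 3 of the 8 fits without 1 library (without Fl/Fl 9, Fl/Fl 10 or LKO 3), and its male Fl/Fl 10 value, 2.25 CPM, was inside the LKO range. The number lower was 0 without Fl/Fl 5, LKO 4 or LKO 13 and 5 without LKO 3. That list holds Ier3 itself and shares Pim1, Ptgs2 and Nfkbiz with the immediate early list. Of 25 Myc target genes of ribosome production and growth, 0 passed (edgeR; 0 lower and 4 higher at an unadjusted p under 0.05, 0 by DESeq2), the median was 0.07 and the smallest p was that of Hspe1 (log2 0.28 ± 0.09, adjusted p = 0.147). Of 16 clock genes 0 passed in edgeR (Ciart log2 1.63 ± 0.44, adjusted p = 0.148), and DESeq2 called 1 higher. In edgeR without Fl/Fl 9, 3 clock genes were higher (Ciart, Cry2 and Per1), where 2.84% of all genes were called higher. Of 10 glucocorticoid response genes, which stress hormones and fasting raise, 1 was higher (Mt2, log2 2.06 ± 0.24, edgeR adjusted p = 0.00954, lost without Fl/Fl 5), 7 were higher at an unadjusted p under 0.05 and the median was 0.58. DESeq2 called 7 of them higher (Fkbp5, Lcn2, Mt2, Pck1, Tat, Tsc22d3 and Zbtb16), and edgeR called 3 higher without LKO 12. Without a sex term, 0 of the 12 list genes past the threshold in the main edgeR fit passed. That fit called 0 genes lower and 1 higher of 16420.

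The 5 protein-coding genes most like the members were Rgs1, Fas, Tnfaip2, Calcrl and Jun, by the mean Pearson correlation of log2 CPM with the 10 members over the 8 libraries, among 9174 genes of at least 5 CPM. These means were 0.62 for Rgs1, Fas and Tnfaip2 and 0.61 for Calcrl and Jun, given as a description of libraries that share their genotype and clock differences. Rgs1, a regulator of G protein signalling, had 18.8, 17.4 and 13.8 CPM in Fl/Fl 5, 7 and 9, 1.77 CPM in Fl/Fl 10 and 2.604 to 7.03 CPM in LKO (log2 -1.86 ± 0.30, edgeR adjusted p = 0.0300). The log2 fold changes of the others were -0.30 ± 0.09 for Fas (0.147), -1.003 ± 0.14 for Tnfaip2 (0.0127), -0.37 ± 0.10 for Calcrl (0.102) and -2.40 ± 0.35 for Jun (0.0369). As genes picked for following the members, they are a description and no support for them.

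In the authors' deposited table, which compares LKO with all 4 Fl/Fl libraries, 2 of 10 members were lower at an adjusted p under 0.05, as were 0.152% of its genes. They were Phlda1 (log2 -1.79, adjusted p = 1.2e-05) and Egr1 (-2.55, 0.0284). Myc had -1.94 (0.144), Ier2 -1.55 (0.340) and Zfp36 -0.99 (0.552) in the authors' deposited table. These values and those above come from the same libraries.

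Other measures also differed between libraries, and none of the following shares was tested. The mitochondrial share of reads was 5.44 to 6.47% in female Fl/Fl, 5.55% in the male library and 4.84 to 5.42% in LKO, and the share of Alb, the main hepatocyte transcript, was 10.4 to 11.2%, 5.47% and 9.63 to 10.3%. Of the 9 cholangiocyte markers tested, 0 passed (edgeR; median log2 fold change -0.17), and Spp1, the most abundant, had 44.9 ± 3.65 and 38.2 ± 5.36 CPM (adjusted p = 0.359). Their part in the members' values was not tested. Summed markers of other cell types overlapped between female Fl/Fl and LKO, with the male library often apart: Kupffer cell and macrophage markers summed to 386 to 577 CPM in female Fl/Fl and 438 to 542 CPM in LKO (male 398), endothelial markers to 371 to 453 and 379 to 435 CPM (male 278), stellate cell and fibroblast markers to 391 to 413 and 342 to 408 CPM (male 249) and neutrophil markers to 12.7 to 27.5 and 15.1 to 25.8 CPM (male 17.1). Red blood cell markers summed to 53.7 to 90.4 and 52.6 to 73.3 CPM, and to 198 CPM in the male library.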

How the data were processed

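Total RNA of 8 livers was sequenced. Per the labels' protocols, RNA came from a Qiagen column kit and libraries from the NEBNext Ultra kit. Tools named without roles in the submitters' processing notes are STAR, fastp, featureCounts, HTSeq, edgeR, DESeq2 and DESeq, with build mm10; not given in the sources used here are the strand setting and annotation release. The authors deposited whole-number read counts per gene, normalised signal values (the counts over a size factor), FPKM, and their own log2 fold change with its p-value, of which signal was not used here.

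Groups and sexes came from the labels, which do not state separate litters or days, and the p-values reflect only how far these libraries vary. Counts were kept by filterByExpr by genotype, scaled by TMM (factors 0.967 to 1.03) and fitted with genotype and sex in edgeR 4.0.16 (robust quasi-likelihood) in R 4.3.3. The sex term absorbs the 1 male library, so the genotype effect is that of the 7 females. A standard error is the log2 fold change over the square root of F. At these depths 3 reads are worth 0.0385 to 0.0428 CPM, counting error only. The procedure was checked on simulated data, whose settings and outcome are not given here, so that check lends no support to the values above.

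Named genes were all members; of each list, up to 4 genes past the threshold or the 1 with the smallest p; the 5 most correlated genes; Pkd1l1, Dbp, Arntl and Spp1. Members, lists and tests were chosen with earlier results of these data known. Gpr65, set in the list of Phlda relatives, is not one and is not described. Alternatives were no sex term, females alone, Fl/Fl 5 and 7 left out, other scalings and filters, DESeq2 1.42.0, limma 3.58.1 (voom, and trend on log2(FPKM + 1)), a clock term, each library left out and a threshold of 0.01. Sides by clock index and their interaction were added after seeing the data.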

Additional observations from a re-analysis of the deposited data

Results flagged for a closer look

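The interaction term of genotype and clock index side in edgeR passed for 3 members, with an arm of 1 female control of high index (Fl/Fl 9) that could not be left out, so a difference of that library and one of the side cannot be told apart: Zfp36 by 1.49 on the log2 scale (1.37 to 1.66 over 8 alternatives, past the threshold in 6 of them), Phlda1 by 1.57 (1.42 to 1.76, past in 3) and Ier5 by -1.61 (-1.82 to -1.26, past in 3). Their adjusted p-values over those alternatives were 0.00317 to 0.0662 for Zfp36, 0.00635 to 0.109 for Phlda1 and 0.0253 to 0.418 for Ier5. The share of all genes that passed ranged from 0.0536% (without Fl/Fl 7) to 1.81% (without LKO 4) over the same alternatives. Without a sex term, Phlda1 and Ier5 did not pass. By Dixon's test, which with 4 libraries finds only a gap that takes up most of the range, 0 of 20 comparisons within a genotype found a library apart; the male Fl/Fl 10 still lay below the 3 female controls in 8 members.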

How the results depend on the processing

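The count of members past the threshold and lower in LKO was 1 by the main analysis. It was 0 without a sex term, where 0 genes were called lower, and with no filter beyond 1 read, where 0.524% of all genes were. It was also 0 with the clock index added, where 0.499% of all genes were called lower, and at an adjusted p of 0.01. Without Fl/Fl 5 and 7 the sex term leaves Fl/Fl 9 as the only female control, so effect sizes alone are given for that fit. With DESeq2, which called 1.63% of all genes lower, it was 5. With each library left out in turn it ranged from 0 to 4. The count was 0 without Fl/Fl 5, Fl/Fl 7, LKO 4, LKO 12 or LKO 13, where 0.0119% to 0.179% of all genes were called lower. It was 4 without Fl/Fl 9 (Egr1, Ier2, Phlda1 and Zfp36), where 1.5% of all genes were called lower. Without LKO 3 it was 1, and the gene was Btg2 and not Phlda1. The count of higher members was 0 in each of these settings. The median log2 fold change of the members was -0.74 without a sex term and -0.68 without Fl/Fl 5 and 7, against -1.02. Without Fl/Fl 5 and 7 the sign turned for Ier3 (-0.37), Ier5 (-0.15), Dusp1 (0.057) and Zfp36 (0.13), and with the clock index added it turned for Ier3 (-0.10). Leaving out 1 library moved Ier3 from -0.15 to 0.31, with values below 0 without Fl/Fl 5 (-0.04), Fl/Fl 7 (-0.09) or LKO 12 (-0.15). The cause was not tested. Of the 12 genes of the pathway lists past the threshold, 1 (Junb) passed in each of the 8 fits without 1 library. Egr1, Ier2, Myc, Phlda1, Btg2 and Klf6 were negative in all 19 alternatives. Egr1 ranged from -3.32 to -2.35 when 1 library was left out. Its weakest value, -1.24, was that without Fl/Fl 5 and 7, against Fl/Fl 9 alone of the females. No paired analysis was possible because the replicate numbers differ between the genotypes.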
